A study of Mus musculus with 6 samples.

Results

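Transcripts of 10 antiviral restriction factors, Bst2, Ifitm1, Ifitm2, Ifitm3, Ifitm6, Mx1, Mx2, Samhd1, Apobec3 and Eif2ak2, were followed in mouse macrophages. They were taken by name from a table of 54532 genes, and each name matched 1 row. The SAHH-KO group held 3 libraries in which S-adenosylhomocysteine hydrolase, the enzyme encoded by Ahcy, was targeted. Its titles say knockout, while its genotype label says knockdown. The control group held 3 libraries labelled shControl and also WT. All 6 libraries came from primary peritoneal macrophages, which the labels describe as elicited by thioglycollate over 4 days and purified by adherence for 6 h. All of them were given interferon-γ at 2 ng/mL with lipopolysaccharide (LPS) at 10 ng/mL for 8 h, so no value below describes resting cells. The labels give no strain, sex or age of the mice and do not say if replicates were separate animals or cultures, so p-values measure only the spread between these libraries, which may be technical.

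Restriction factors are proteins that block a step of viral replication inside the infected cell, and most of their genes are induced by interferons. Type I interferon acts through a complex with STAT2 and IRF9 that binds the interferon-stimulated response element (ISRE), while interferon-γ acts at the gamma-activated site (GAS). IFITM proteins hinder the fusion of enveloped viruses with cell membranes, and MX proteins are dynamin-like GTPases that trap viral ribonucleoproteins. BST2 (tetherin) holds budding virions on the cell surface, and APOBEC3 deaminates cytidines in retroviral DNA or blocks its synthesis. SAMHD1 breaks down the deoxynucleotides that reverse transcription needs, and PKR, encoded by Eif2ak2, halts translation when it binds double-stranded RNA. In macrophages these genes form part of the interferon response that follows LPS.

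RefSeq promoter windows of GRCm38.p6, from 250 bases before to 50 bases after each annotated start, were at hand for 8 of the 10 genes, with 9 windows in all because Apobec3 had 2. None was listed for Mx1 and Mx2. The windows were searched on both strands for the ISRE core, which is GAAA, any 2 bases (NN) and GAAA, and for the GAS motif TTCNNNGAA. The windows below show the genes that the comparison turns on, written 5′ to 3′ on the strand of the gene, with every match of either motif in capitals.
Bst2 (chr8:71537423-71537722, minus strand): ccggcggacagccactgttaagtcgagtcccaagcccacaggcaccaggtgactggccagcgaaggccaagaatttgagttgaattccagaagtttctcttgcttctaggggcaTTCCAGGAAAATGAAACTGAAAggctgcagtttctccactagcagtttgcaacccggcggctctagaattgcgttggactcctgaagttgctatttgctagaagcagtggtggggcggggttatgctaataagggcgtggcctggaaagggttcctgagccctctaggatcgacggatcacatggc
Ifitm2 (chr7:140955912-140956211, minus strand): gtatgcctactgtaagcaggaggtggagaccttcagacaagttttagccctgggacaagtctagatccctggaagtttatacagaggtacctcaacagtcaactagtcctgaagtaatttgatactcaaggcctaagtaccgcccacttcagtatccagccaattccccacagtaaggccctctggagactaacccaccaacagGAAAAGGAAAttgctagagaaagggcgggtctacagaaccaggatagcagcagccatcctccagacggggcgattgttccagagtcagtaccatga
Ifitm3 (chr7:141010695-141010994, minus strand): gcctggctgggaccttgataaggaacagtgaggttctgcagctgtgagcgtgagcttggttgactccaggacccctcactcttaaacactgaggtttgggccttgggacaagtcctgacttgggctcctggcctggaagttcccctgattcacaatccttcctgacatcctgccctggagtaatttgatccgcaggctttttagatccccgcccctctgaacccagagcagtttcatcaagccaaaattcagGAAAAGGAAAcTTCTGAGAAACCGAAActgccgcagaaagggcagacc
Ifitm6 (chr7:141016843-141017142, minus strand): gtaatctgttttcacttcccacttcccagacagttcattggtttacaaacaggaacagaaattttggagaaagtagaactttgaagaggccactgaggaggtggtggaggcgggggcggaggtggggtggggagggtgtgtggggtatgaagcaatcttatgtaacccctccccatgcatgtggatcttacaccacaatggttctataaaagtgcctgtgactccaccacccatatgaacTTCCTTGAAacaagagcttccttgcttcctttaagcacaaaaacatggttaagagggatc
Samhd1 (chr2:157135047-157135346, minus strand): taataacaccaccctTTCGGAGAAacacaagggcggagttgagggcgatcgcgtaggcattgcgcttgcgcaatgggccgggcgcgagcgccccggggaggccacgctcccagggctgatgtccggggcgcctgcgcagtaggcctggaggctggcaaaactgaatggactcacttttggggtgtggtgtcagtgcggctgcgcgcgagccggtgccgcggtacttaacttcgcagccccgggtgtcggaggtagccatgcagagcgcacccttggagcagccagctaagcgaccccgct
Apobec3 (chr15:79892158-79892457, plus strand): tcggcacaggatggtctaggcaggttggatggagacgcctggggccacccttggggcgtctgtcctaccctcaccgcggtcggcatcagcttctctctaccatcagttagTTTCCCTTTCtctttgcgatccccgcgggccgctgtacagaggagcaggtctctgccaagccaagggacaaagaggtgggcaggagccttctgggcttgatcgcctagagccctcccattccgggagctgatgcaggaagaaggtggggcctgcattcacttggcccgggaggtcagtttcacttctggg
Eif2ak2 (chr17:78882523-78882822, minus strand): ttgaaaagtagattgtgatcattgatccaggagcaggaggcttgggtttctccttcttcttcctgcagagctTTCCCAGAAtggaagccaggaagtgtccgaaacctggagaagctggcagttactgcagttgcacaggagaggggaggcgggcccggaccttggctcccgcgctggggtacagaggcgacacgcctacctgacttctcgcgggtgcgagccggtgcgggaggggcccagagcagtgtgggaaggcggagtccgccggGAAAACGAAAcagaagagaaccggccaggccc

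An ISRE core was found in 5 of the 8 genes, Bst2, Ifitm2, Ifitm3, Apobec3 and Eif2ak2, and a GAS motif in 5, Bst2, Ifitm3, Ifitm6, Samhd1 and Eif2ak2. Among all 32851 windows of the table, 3.44% held the ISRE core and 8.30% the GAS motif. Counted as genes, 3.99% and 9.55% of 27025 had the ISRE core and the GAS motif in at least 1 window. Bst2 had 2 overlapping ISRE cores, the first starting 130 bases before the annotated start, and its GAS match overlaps the first of them. Ifitm3 also had 2, which begin at window bases 253 and 270, just past the start that follows base 250, with a GAS match at base 264 that runs into the second. The Ifitm2 match, with the same letters as the first of Ifitm3, begins 46 bases before the start. The Apobec3 match lies on the opposite strand, 140 bases before the start of its first window, and the Eif2ak2 match begins at window base 269. The Ifitm6 and Samhd1 windows held a GAS match alone, and the windows of Ifitm1 and of the second Apobec3 start held neither motif. These are matches of letters within these windows, with no binding measured.

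**Figure D1:**
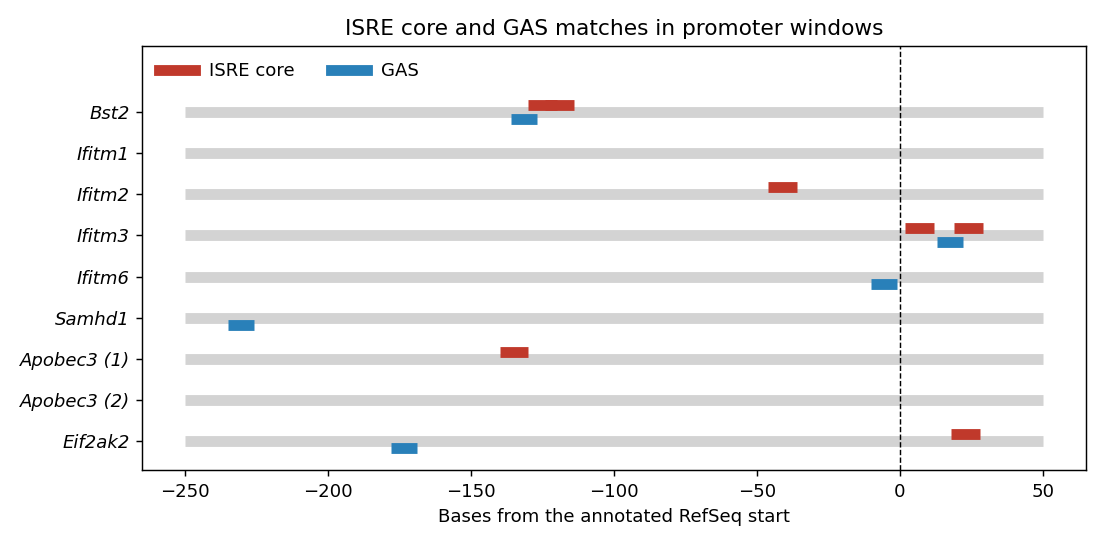
Positions of ISRE core matches (red, above) and GAS matches (blue, below) in the RefSeq promoter windows of 8 genes (Apobec3 has 2 windows), with the distance from the annotated start in bases along the axis and the start as a dashed line. Matches of Bst2 and Apobec3 lie 130 and 140 bases before the start, and those of Ifitm3 just after it.

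The SAHH-KO libraries held 15856261 to 17748745 reads assigned to genes and the control libraries 15540442 to 16676534. Ahcy averaged 5.75 ± 0.419 FPKM in SAHH-KO and 24.3 ± 1.59 FPKM in control (SD, n = 3 each; log2 fold change -1.90, SE 0.0873, limma adjusted p = 1.44e-06). Reads of Ahcy and of Gm4737, a gene with a nearly identical transcript, cannot be told apart with certainty. Gm4737 was lower as well, at 18.0 ± 2.50 FPKM in SAHH-KO and 66.2 ± 2.51 FPKM in control (log2 fold change -1.83, limma adjusted p = 4.10e-06). In each library more reads were counted at Gm4737 than at Ahcy. Of 10 macrophage markers, 7 averaged at least 1 FPKM, with summed levels of 9311 to 10572 FPKM in SAHH-KO and 8343 to 8643 FPKM in control. Most of that sum is Lyz2 and Cd14. Adgre1, which encodes F4/80, was at 165 ± 24.5 FPKM in SAHH-KO and 78.9 ± 1.77 FPKM in control (log2 fold change 1.04, limma adjusted p = 0.000104) and Itgam was higher too (log2 fold change 0.49, limma adjusted p = 0.00152), while Csf1r lay lower in each SAHH-KO library than in any control library and did not pass (log2 fold change -0.23, limma adjusted p = 0.0568). Cd163 and Gata6, a factor of resident peritoneal macrophages, had 0 reads, and Mertk had 1 read in each group. T cell markers Cd3g and Cd8a, neutrophil marker Ly6g, mast cell marker Cpa3 and mesothelial marker Msln had 0 reads in all libraries. Summed markers were at 3.099 to 4.85 FPKM in SAHH-KO and 2.29 to 2.54 FPKM in control for T and NK cells, and at 4.16 to 4.81 FPKM in SAHH-KO and 6.08 to 6.402 FPKM in control for neutrophils. The T and NK cell sum rests on Lck (log2 fold change 0.59, limma adjusted p = 0.00719), while Cd3e had 2 reads over all libraries and Cd4 had 1. The neutrophil sum joins markers that went opposite ways, with S100a8 at 0.189 ± 0.251 FPKM in SAHH-KO and 4.63 ± 0.486 FPKM in control (log2 fold change -2.26, limma adjusted p = 1.09e-05) and Csf3r at 4.34 ± 0.424 FPKM in SAHH-KO and 1.62 ± 0.462 FPKM in control (log2 fold change 1.04, limma adjusted p = 0.000348). S100a8 reached the 1 FPKM needed for the test in the control libraries only, so it had to differ. The part of these marker differences in the results below was not tested. In such bulk RNA, a larger share of cells that express a gene and more RNA per cell cannot be told apart.

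Of the 10 genes, 9 had at least 1 FPKM in at least 3 libraries and were tested, and 8 of the 9 were higher in SAHH-KO while none was lower (limma on log2(FPKM + 1), adjusted p under 0.05 over all 10362 genes tested). Over all genes tested, 26.4% were higher and 26.8% lower by the same rule. The counts of each gene list below stand beside these shares too. The genes and the lists were chosen with earlier results of these libraries known, so their counts are no independent evidence. The 3 SAHH-KO values lay above the 3 control values for 8 of the 9 genes, against 30.7% of all genes tested. The median log2 fold change was 1.07 for the 9 genes and -0.01 for all genes tested. Mx1 passed the filter only through its values in SAHH-KO, so it had to differ, and without it 7 of 8 were called. Ifitm6 was the tested gene without a call, and Ifitm1 was near 0 throughout. The genes fell into 3 ranges of change, with the Mx genes above 3 on the log2 scale, Eif2ak2 and Samhd1 near 1.7, and the other called genes between 0.65 and 1.07. The bounds depend on the pseudocount of 1, and with 0.1 Apobec3 was at 1.20. Of all genes tested, 6.65% were called higher with a log2 fold change of at least 1, and 5 of the 9 were. Among these 5 are Mx1, which had to differ, and Ifitm2, which fell to 0.91 when libraries were scaled to TPM or to assigned reads.

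**Figure D2:**
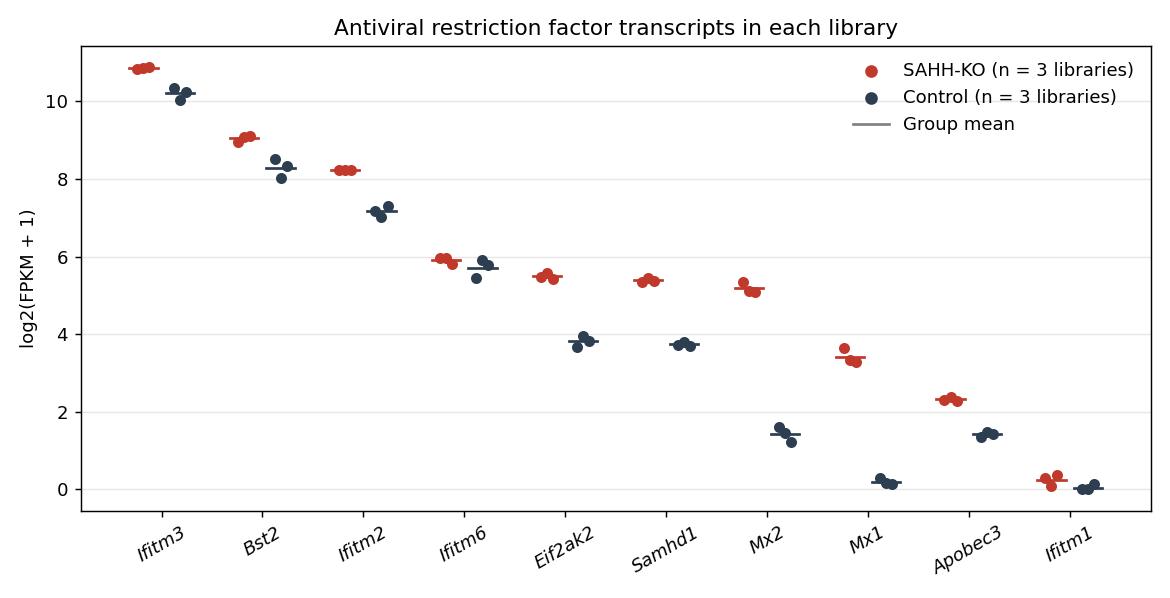
Level of each gene in each library as log2(FPKM + 1), with SAHH-KO (red) to the left of control (dark) and a line at each group mean, n = 3 libraries per group. The groups stand apart for Mx2, Mx1, Eif2ak2 and Samhd1, lie closer for Ifitm3 and Bst2, and overlap for Ifitm6 and Ifitm1.

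The Mx genes changed most. Mx1 (ENSMUSG00000000386) lies on chromosome 16, bases 97447035 to 97462907 on the minus strand, and Mx2 (ENSMUSG00000023341) on chromosome 16, bases 97535308 to 97560900 on the plus strand of GRCm38. Mouse MX1 acts in the nucleus against influenza viruses and MX2 in the cytoplasm against vesicular stomatitis virus, and most inbred laboratory strains carry alleles of both that give no functional protein. The deposited table gives Mx2 as a polymorphic pseudogene and Mx1 as protein coding, while RefSeq, on the C57BL/6J genome, lists both as transcribed pseudogenes. The values are therefore of transcripts and carry no statement on protein.

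Mx1 read 11.5, 9.13 and 8.77 FPKM in the SAHH-KO libraries, against 0.221, 0.129 and 0.103 FPKM in the control libraries. Every SAHH-KO library lay far above every control library, in which Mx1 rested on 14, 8 and 7 reads, while SAHH-KO had 727, 526 and 511 reads. The mean was 9.82 ± 1.51 FPKM in SAHH-KO and 0.151 ± 0.0618 FPKM in control (SD, n = 3 each), a 64.97-fold difference of means (log2 fold change 3.22, SE 0.118, limma adjusted p = 4.78e-07). The ratio of summed, scaled reads was 65.7, with an exact 95% interval of 45.6 to 98.4 that covers counting error alone. A pseudocount of 1 compresses the change of a gene this low in control, and with 0.1 the log2 fold change was 5.32. Mx2 had 39.9, 33.7 and 33.3 FPKM in the SAHH-KO libraries, against 2.03, 1.76 and 1.32 FPKM in the control libraries. Its groups were separate as well, at 35.6 ± 3.69 FPKM in SAHH-KO and 1.701 ± 0.361 FPKM in control (SD, n = 3 each), which is 20.9-fold (log2 fold change 3.76, SE 0.121, limma adjusted p = 2.44e-07). By log2 fold change Mx2 ranked 10th and Mx1 24th from the top of the 10362 genes tested.

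Mx2 was the more abundant of the pair in each library, per length of gene. The ratio of Mx2 to Mx1 FPKM was 3.45, 3.69 and 3.79 in SAHH-KO and 9.201, 13.6 and 12.7 in control, where the few Mx1 reads make it imprecise. The ranges of this ratio do not overlap, and the difference was not tested. The longest annotated coding sequences of the pair were 73.3% identical, and 3.86% of the 50-base words of Mx1 transcripts occur in Mx2, so few reads could have come from either. Within SAHH-KO, replicate 1 was the highest for both genes, and in control replicate 1 was also the highest for both. Among the dynamin relatives of MX proteins, which serve membrane fission and fusion, 2 of 6 tested were higher and 1 lower. The shares over all genes tested were 26.4% and 26.8%. The list had a median log2 fold change of 0.12. Dnm1, neuronal dynamin, was at 2.69 ± 0.954 FPKM in SAHH-KO and 0.6803 ± 0.104 FPKM in control (log2 fold change 1.10, limma adjusted p = 0.0009702), and it too reached 1 FPKM only in SAHH-KO. Under both other scalings of the libraries Dnm2, the dynamin found in most tissues, was no longer called and the median of the list was -0.03.

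The 4 Ifitm genes lie within one cluster on chromosome 7, between bases 140954837 (Ifitm2) and 141017924 (Ifitm6), and differed widely in level. Ifitm3 (ENSMUSG00000025492, chromosome 7, bases 141009586 to 141010770 on the minus strand) encodes the endosomal member that restricts influenza virus in mice and humans. It read 1832, 1849 and 1888 FPKM in the SAHH-KO libraries, against 1309.8, 1056 and 1199 FPKM in the control libraries. It ranked 18th of all genes by mean FPKM in SAHH-KO and 26th in control. The groups did not overlap, at 1856 ± 28.5 FPKM in SAHH-KO and 1188 ± 127 FPKM in control (SD, n = 3 each), a 1.56-fold difference (log2 fold change 0.65, SE 0.0898, limma adjusted p = 0.000479). The 3 SAHH-KO libraries differed among themselves by far less than the 3 control libraries did, with coefficients of variation of 1.53% in SAHH-KO and 10.7% in control.

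Ifitm2 (ENSMUSG00000060591, chromosome 7, bases 140954837 to 140955987 on the minus strand), a close relative that also blocks entry of enveloped viruses, had 300.4, 298 and 301 FPKM in the SAHH-KO libraries, against 142, 129 and 157 FPKM in the control libraries. Every SAHH-KO value lay well above the highest control value, and the means were 299.99 ± 1.72 FPKM in SAHH-KO and 143 ± 14.01 FPKM in control (SD, n = 3 each; log2 fold change 1.07, SE 0.0858, limma adjusted p = 2.46e-05). Its level carries a limit of annotation, since Gm45717, a model on the same strand that reaches from Ifitm5 into Ifitm2, covers 40.9% of the Ifitm2 exon bases. Gm45717 was listed with 0 reads in all libraries, and the sources used here do not say how reads in the shared bases were counted. The pseudogene Gm11951 holds 14.9% of the Ifitm2 words and had 3 reads in SAHH-KO and 0 in control.

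Ifitm6 (ENSMUSG00000059108, chromosome 7, bases 141015699 to 141017924 on the minus strand) had 61.5, 61.3 and 55.2 FPKM in the SAHH-KO libraries, against 42.3, 59.3 and 53.9 FPKM in the control libraries. The groups overlapped, since control replicates 2 and 3 lay within or close to the SAHH-KO range and control replicate 1 below it. The means were 59.3 ± 3.57 FPKM in SAHH-KO and 51.8 ± 8.68 FPKM in control (SD, n = 3 each), and the difference did not pass the threshold (log2 fold change 0.20, SE 0.124, limma adjusted p = 0.198), with a 95% interval from -0.08 to 0.49 on the log2 scale. Ifitm1 (ENSMUSG00000025491, chromosome 7, bases 140967221 to 140969825 on the plus strand), whose human counterpart acts at the cell surface, had 4, 1 and 5 reads in the SAHH-KO libraries, against 0, 0 and 2 in the control libraries. With 10 reads in SAHH-KO and 2 in control it was at the limit of detection, and it was not tested. Its longest coding sequence was 63.5% identical to that of Ifitm3, against 75.9% between Ifitm2 and Ifitm3 and 57.9% between Ifitm3 and Ifitm6.

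The summed FPKM of the 4 genes was 2194, 2208 and 2245 in SAHH-KO and 1495, 1245 and 1410 in control. Ifitm3 made up 83.8% ± 0.302 of it in SAHH-KO and 85.8% ± 1.56 in control (SD, n = 3 each). The share of Ifitm2 was 13.5% ± 0.133 in SAHH-KO and 10.3% ± 0.805 in control, and that of Ifitm6 2.68% ± 0.1904 in SAHH-KO and 3.805% ± 0.966 in control. So Ifitm2 took a larger share in each SAHH-KO library than in any control library, while Ifitm3 and Ifitm6 took a smaller one. For Ifitm6 the margin was narrow, with at most 2.80% in SAHH-KO and at least 2.83% in control. These shares were not tested.

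**Figure D3:**
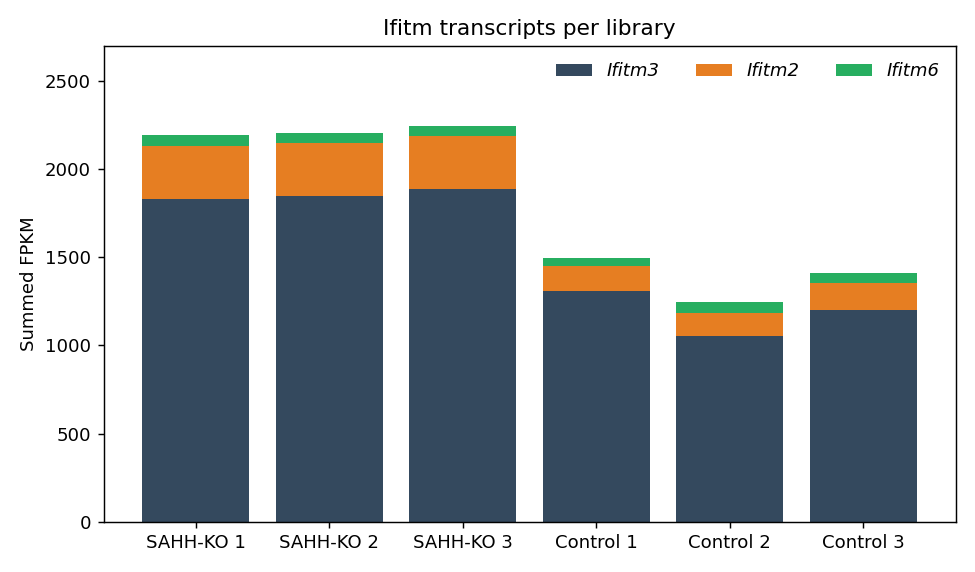
Stacked FPKM of Ifitm3, Ifitm2 and Ifitm6 in each of the 3 SAHH-KO and 3 control libraries (Ifitm1 is too low to be seen). Ifitm3 makes up most of the sum in every library, and the SAHH-KO sums lie between 2194 and 2245 FPKM, above every control library.

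Of the Ifitm relatives and the enzymes that modify IFITM proteins, 5 of 8 could be tested, of which 2 were higher and 1 lower, with a median log2 fold change of -0.05. Ifitm5, the bone-specific relative beside Ifitm2, had 21, 16 and 12 reads in the SAHH-KO libraries, against 2, 1 and 1 in the control libraries (log2 fold change 1.08, limma adjusted p = 0.000212). It passed the filter through SAHH-KO only, its level stayed below that of Apobec3 in each library, and it too shares bases with Gm45717. Ifitm7 had 0 reads. Setd7, a lysine methyltransferase that acts on human IFITM3, was at 5.26 ± 0.658 FPKM in SAHH-KO and 3.67 ± 0.348 FPKM in control (log2 fold change 0.42, limma adjusted p = 0.0107). Zmpste24, a membrane protease that human IFITM3 works with, was lower at 8.84 ± 0.688 FPKM in SAHH-KO and 14.1 ± 1.92 FPKM in control (log2 fold change -0.62, limma adjusted p = 0.00177).

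Bst2 (ENSMUSG00000046718) lies on chromosome 8, bases 71534255 to 71537456 on the minus strand. Its level was 498, 541 and 555 FPKM in the SAHH-KO libraries, against 362, 261 and 322 FPKM in the control libraries. The lowest SAHH-KO library lay above the highest control library, and control replicate 2 was the lowest of all. The means were 531 ± 29.4 FPKM in SAHH-KO and 315 ± 50.96 FPKM in control (SD, n = 3 each), a 1.69-fold difference (log2 fold change 0.76, SE 0.1196, limma adjusted p = 0.000925). It was the most abundant after Ifitm3 of the 10 genes in both groups. In mice the protein also marks plasmacytoid dendritic cells. Of 6 further markers of these cells, 2 averaged at least 1 FPKM, and the summed level of all 6 was 41.2 to 73.3 FPKM in SAHH-KO and 5.38 to 6.85 FPKM in control. That sum rests on Cox6a2, a respiratory chain subunit, at 54.3 ± 15.9 FPKM in SAHH-KO and 5.03 ± 0.723 FPKM in control, and on Tcf4, at 2.31 ± 0.127 FPKM in SAHH-KO and 1.003 ± 0.1005 FPKM in control. The defining marker Siglech had 0 reads in every library, Ccr9 stayed at 0.113 FPKM in SAHH-KO and 0.0797 FPKM in control, and Klk1 and Spib had at most 3 reads over all libraries. The part of such cells in the Bst2 level was not tested.

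Of the genes for BST2 turnover and for the ESCRT machinery that releases virions, 7 were tested. Of these, 1 was higher and 2 lower, against 26.4% and 26.8% of all genes tested, with a median log2 fold change of -0.12. Chmp4b, which forms ESCRT-III filaments, was at 154 ± 2.95 FPKM in SAHH-KO and 86.4 ± 8.84 FPKM in control (log2 fold change 0.83, limma adjusted p = 0.000124). The ATPase genes Vps4a and Vps4b, which take those filaments apart, were lower (log2 fold change -0.48, limma adjusted p = 0.00196, and log2 fold change -0.24, limma adjusted p = 0.0443), but the call of Vps4b was lost when any 1 library other than control replicate 1 was left out. March8, a ubiquitin ligase that downregulates BST2, was at 8.96 ± 0.366 FPKM in SAHH-KO and 9.88 ± 0.212 FPKM in control and did not pass (log2 fold change -0.13, limma adjusted p = 0.188).

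Samhd1 (ENSMUSG00000027639, chromosome 2, bases 157097533 to 157135265 on the minus strand) read 40.01, 42.7 and 40.6 FPKM in the SAHH-KO libraries, against 12.2, 12.99 and 11.9 FPKM in the control libraries. The libraries of each group lay close together and far from those of the other group. The means were 41.1 ± 1.43 FPKM in SAHH-KO and 12.4 ± 0.582 FPKM in control (SD, n = 3 each), a 3.33-fold difference (log2 fold change 1.66, SE 0.0758, limma adjusted p = 1.43e-06). SAMHD1 restricts retroviruses in myeloid cells that do not divide, and in human cells cyclin A2 with CDK1 or CDK2 phosphorylates it and lifts the restriction.

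The genes that control SAMHD1 or supply deoxynucleotides were lower more often than higher, with 6 of 11 tested lower, 4 higher and a median log2 fold change of -0.49. The kinase partners Ccna2, Cdk1 and Cdk2 were all lower (log2 fold change -2.15, limma adjusted p = 8.29e-07, log2 fold change -1.45, limma adjusted p = 4.91e-05, and log2 fold change -0.49, limma adjusted p = 0.00113). Of the subunit genes of ribonucleotide reductase, the enzyme that makes deoxynucleotides, Rrm2 and Rrm1 were lower. Rrm2 was at 4.803 ± 1.14 FPKM in SAHH-KO and 42.6 ± 2.19 FPKM in control (log2 fold change -2.93, limma adjusted p = 1.93e-06). Rrm1 was at 6.16 ± 1.05 FPKM in SAHH-KO and 21.96 ± 1.86 FPKM in control (log2 fold change -1.69, limma adjusted p = 1.32e-05). The further subunit gene Rrm2b was not called (log2 fold change 0.27, limma adjusted p = 0.109). The ratio of Samhd1 to Rrm1 FPKM was 7.77, 5.901 and 6.66 in SAHH-KO and 0.602, 0.542 and 0.548 in control, so Samhd1 was the higher of the pair in each SAHH-KO library and the lower in each control library. Cytosolic thymidine kinase, Tk1, was lower (log2 fold change -1.16, limma adjusted p = 4.97e-05). The CDK inhibitor gene Cdkn1a was higher at 169 ± 5.49 FPKM in SAHH-KO and 43.9 ± 3.26 FPKM in control (log2 fold change 1.93, limma adjusted p = 8.61e-07), as was Dck, the deoxycytidine kinase of the salvage pathway, at 21.2 ± 0.926 FPKM in SAHH-KO and 9.203 ± 1.04 FPKM in control (log2 fold change 1.13, limma adjusted p = 3.19e-05). The other higher genes were Cdk6 (log2 fold change 0.81, limma adjusted p = 0.000248) and Dguok (log2 fold change 0.79, limma adjusted p = 0.000978). Most of the lower genes also follow the cell cycle, and whether their levels are tied to that of Samhd1 was not tested.

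Apobec3 (ENSMUSG00000009585, chromosome 15, bases 79891659 to 79915906 on the plus strand) restricts murine leukaemia virus and mouse mammary tumour virus. It had 3.93, 4.198 and 3.86 FPKM in the SAHH-KO libraries, against 1.57, 1.801 and 1.68 FPKM in the control libraries. The groups did not overlap, and the means were 3.99 ± 0.1799 FPKM in SAHH-KO and 1.68 ± 0.114 FPKM in control (SD, n = 3 each; log2 fold change 0.90, SE 0.0881, limma adjusted p = 7.53e-05). The change of means was 2.37-fold, more than the fitted value gives because of the pseudocount. Other annotated genes cover 8.21% of its exon bases. Of the other deaminases and the uracil repair gene on the list, 3 of 7 were tested. Apobec1, an RNA-editing deaminase, was at 67.2 ± 5.58 FPKM in SAHH-KO and 36.2 ± 2.47 FPKM in control (log2 fold change 0.87, limma adjusted p = 0.000102), and Adar, which deaminates adenosine in double-stranded RNA, was at 57.4 ± 3.17 FPKM in SAHH-KO and 18.6 ± 1.84 FPKM in control (log2 fold change 1.58, limma adjusted p = 4.82e-06). Apobec1 was thus the more abundant APOBEC transcript per length in every library, with an Apobec3 to Apobec1 ratio of 0.0597 ± 0.00453 in SAHH-KO and 0.0465 ± 0.00140 in control. Ung, which removes uracil from DNA, was lower, at 0.112 ± 0.0257 FPKM in SAHH-KO and 1.24 ± 0.0666 FPKM in control (log2 fold change -1.01, limma adjusted p = 8.51e-05). It reached 1 FPKM in the control libraries only, so it passed the filter through them and had to differ.

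Eif2ak2 (ENSMUSG00000024079, chromosome 17, bases 78852564 to 78882573 on the minus strand) had 43.2, 47.1 and 42.2 FPKM in the SAHH-KO libraries, against 11.8, 14.5 and 13.1 FPKM in the control libraries. Each SAHH-KO library was far above each control library, and the means were 44.2 ± 2.598 FPKM in SAHH-KO and 13.1 ± 1.36 FPKM in control (SD, n = 3 each), a 3.36-fold difference (log2 fold change 1.68, SE 0.0942, limma adjusted p = 4.02e-06). The other eIF2α kinases moved less or in the opposite direction. Eif2ak1, the haem-regulated kinase, was at 9.43 ± 0.125 FPKM in SAHH-KO and 8.999 ± 0.255 FPKM in control and was not called (log2 fold change 0.06, limma adjusted p = 0.516). Eif2ak3, or PERK, the kinase of the endoplasmic reticulum, was lower at 1.83 ± 0.295 FPKM in SAHH-KO and 2.82 ± 0.293 FPKM in control (log2 fold change -0.44, limma adjusted p = 0.0111), and Eif2ak4, or GCN2, the sensor of uncharged tRNA, was higher at 5.46 ± 0.0909 FPKM in SAHH-KO and 4.05 ± 0.234 FPKM in control (log2 fold change 0.36, limma adjusted p = 0.00642). The ratio of Eif2ak2 to Eif2ak1 FPKM was 4.68 ± 0.287 in SAHH-KO and 1.46 ± 0.158 in control. Eif2ak2 was the most abundant of the 4 kinases in every library of both groups.

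Over the 12 genes of the PKR list, all tested, 5 were higher and 6 lower, with a median log2 fold change of -0.19. The higher genes included Prkra, whose protein PACT activates PKR (log2 fold change 0.61, limma adjusted p = 0.00583), and Ppp1r15a, whose protein GADD34 guides dephosphorylation of eIF2α (log2 fold change 1.13, limma adjusted p = 3.19e-05). Nck1 was also higher (log2 fold change 0.36, limma adjusted p = 0.0148), a call lost under both other scalings and without SAHH-KO replicate 1. Tarbp2, which encodes an inhibitor of PKR, was lower at 5.83 ± 0.481 FPKM in SAHH-KO and 8.80 ± 0.9602 FPKM in control (log2 fold change -0.52, limma adjusted p = 0.00293). Dnajc3, which encodes the inhibitor P58IPK, was lower at 10.6 ± 0.821 FPKM in SAHH-KO and 18.5 ± 0.846 FPKM in control (log2 fold change -0.75, limma adjusted p = 0.000174). The substrate gene Eif2s1 was lower too (log2 fold change -0.52, limma adjusted p = 0.0142), a call lost without SAHH-KO replicate 1 or control replicate 3. Gm6548, a processed pseudogene on the same strand that begins 608 bases beyond the end of Eif2ak2, was counted at 32.6 ± 2.06 FPKM in SAHH-KO and 10.5 ± 2.04 FPKM in control (log2 fold change 1.57, limma adjusted p = 3.53e-05).

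The change of each tested gene held its sign under each scaling of the libraries. Scaling to TPM or to assigned reads moved the median of all genes by -0.16 and -0.14 in log2 units, a shift that counts for genes of small change. Bst2 and Ifitm3 then had log2 fold changes of 0.60 and 0.49 by assigned reads, both still past the threshold (limma adjusted p = 0.00344 and 0.00221). Ifitm6 was at 0.05. With these scalings the genes called over the whole table were 2006 higher and 3894 lower for TPM and 2033 and 3905 for assigned reads, against 2736 higher and 2782 lower as deposited.

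**Figure D4:**
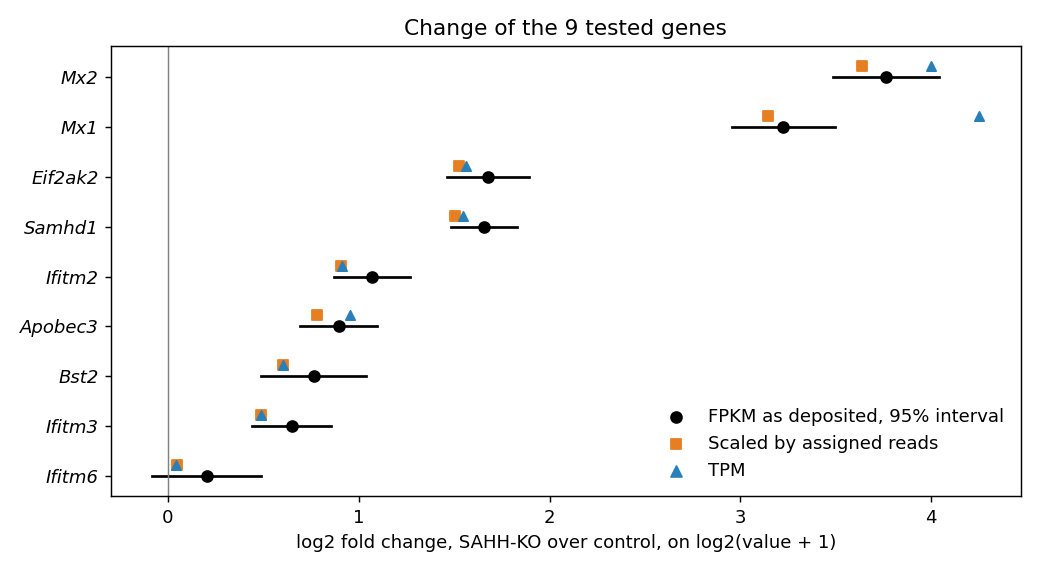
Log2 fold change of SAHH-KO over control for the 9 tested genes on log2(value + 1), with the 95% interval of the limma fit on deposited FPKM (black) and the values after scaling by assigned reads (squares) or to TPM (triangles). Mx2 and Mx1 lie above 3, and only the interval of Ifitm6 includes 0.

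The order of levels, per length, was Ifitm3, Bst2, Ifitm2, Ifitm6, Eif2ak2, Samhd1, Mx2, Mx1, Apobec3 and Ifitm1 in SAHH-KO. There the ranges of Eif2ak2 and Samhd1 overlapped, while every other gene lay wholly above the next. In control the order was the same down to Samhd1, with Eif2ak2 and Samhd1 again overlapping, and then ran Mx2, Apobec3, Mx1 and Ifitm1, with Mx2 and Apobec3 overlapping. Per length, Mx1 was thus above Apobec3 in each SAHH-KO library and below it in each control library. That order rests on lengths of 3785 bases for Mx1 and 9454 for Apobec3. By reads, Mx1 was below Apobec3 in SAHH-KO replicates 2 and 3, at 526 and 511 against 604 and 561. The control libraries did not rank alike across the genes. Replicate 1 was the highest control for Ifitm3, Bst2, Mx1 and Mx2 and the lowest for Ifitm6, Eif2ak2 and Apobec3. Replicate 2 was the lowest for Ifitm2, Ifitm3 and Bst2 and the highest for Ifitm6, Eif2ak2, Samhd1 and Apobec3. The coefficient of variation among the 9 tested genes was 0.572% to 15.4% in SAHH-KO and 4.71% to 40.9% in control, lower in SAHH-KO for each gene.

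Apart from the antiviral role by which they were picked, the genes differ in build. The 4 with the largest changes, Mx2, Mx1, Eif2ak2 and Samhd1, have up to 14, 15, 16 and 17 exons in an annotated transcript, and their longest coding sequences run from 1545 to 1974 bases. Bst2 has up to 5 exons and the Ifitm genes 2 to 3, with coding sequences of 318 to 516 bases, and Apobec3 lies between with 9 exons. In control, Ifitm3, Bst2, Ifitm2 and Ifitm6 had the highest levels of the 10 genes, and together with Apobec3 they had the 5 smallest changes of the 9 tested. All 5 genes with an ISRE core in a window were called higher, with log2 fold changes of 0.65 (Ifitm3) to 1.68 (Eif2ak2). Of the tested genes whose windows held none, Samhd1 was called higher at 1.66 and Ifitm6 was not called. Over all genes tested, 26.4% were called higher, and the share among all genes with an ISRE core was not computed. Mx1 and Mx2, with the largest changes, had no window. Whether the motif goes with the change was not tested. Summed over a group, reads numbered 59442 in SAHH-KO and 41142 in control for Ifitm3, 1783 in SAHH-KO and 812 in control for Apobec3, and 6101 in SAHH-KO and 312 in control for Mx2, so counting error is smallest for Ifitm3.

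The list of interferon signalling genes, which holds ligand, receptor and transducer genes and also feedback inhibitors, was mostly higher, with 13 of 17 tested higher, 1 lower and 3 not called, and a median log2 fold change of 1.09. Ifnb1, the type I interferon gene that macrophages induce first, had 35, 26 and 39 reads in the SAHH-KO libraries, against 0, 5 and 5 in the control libraries, and was at 2.82 ± 0.551 FPKM in SAHH-KO and 0.2599 ± 0.226 FPKM in control (log2 fold change 1.61, limma adjusted p = 9.82e-05). It passed the filter through SAHH-KO alone. The transducer genes Stat2 and Irf9 were at 63.3 ± 6.07 FPKM in SAHH-KO and 4.52 ± 0.172 FPKM in control (log2 fold change 3.54, limma adjusted p = 8.37e-08) and at 18.4 ± 0.797 FPKM in SAHH-KO and 8.08 ± 0.537 FPKM in control (log2 fold change 1.09, limma adjusted p = 1.83e-05). Irf1, the early interferon-γ target, was at 22.03 ± 7.35 FPKM in SAHH-KO and 1.67 ± 0.134 FPKM in control (log2 fold change 3.06, limma adjusted p = 6.43e-06), and Irf7, which amplifies type I interferon, at 165 ± 8.39 FPKM in SAHH-KO and 73.0 ± 4.37 FPKM in control (log2 fold change 1.16, limma adjusted p = 1.06e-05).

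At the receptors, Ifnar1 and Ifnar2 of type I interferon and Ifngr1 of interferon-γ were higher (log2 fold change 0.40, limma adjusted p = 0.0109, log2 fold change 0.71, limma adjusted p = 0.00122, and log2 fold change 0.43, limma adjusted p = 0.00898), while Ifngr2 was not called (log2 fold change -0.09, limma adjusted p = 0.358). With either other scaling Ifnar1 lost its call and Ifngr2 was called lower. Of the receptor kinases, Tyk2 and Jak2 were higher (log2 fold change 1.54, limma adjusted p = 2.29e-05, and log2 fold change 1.73, limma adjusted p = 2.21e-05) and Jak1, which serves both receptors, was the lower gene of the list at 28.7 ± 0.976 FPKM in SAHH-KO and 34.2 ± 2.64 FPKM in control (log2 fold change -0.24, limma adjusted p = 0.0349). The Jak1 call was lost with a replicate block and when any 1 library other than control replicate 1 was left out. Irf3, the factor that is activated by phosphorylation, was not called (log2 fold change 0.09, limma adjusted p = 0.427), nor did it keep its sign under the other scalings. Of the feedback inhibitors, Usp18 was at 219 ± 9.17 FPKM in SAHH-KO and 20.4 ± 1.69 FPKM in control (log2 fold change 3.36, limma adjusted p = 8.37e-08), Socs1 was higher in the fit as deposited but in 6 of 12 alternatives was not called (log2 fold change 0.39, limma adjusted p = 0.0253), and Socs3 was not called (log2 fold change 0.18, limma adjusted p = 0.275).

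Of 31 other antiviral effectors, 26 were tested, 25 were higher, none was lower and 1, March8, was not called (it was called lower under both other scalings), with a median log2 fold change of 2.12. Like the other lists, it was drawn up with earlier results of these libraries known, so its direction is no independent evidence. Its largest changes were those of Ifit2, Rsad2, Ifit3, Isg20, Oasl2 and Isg15, with log2 fold changes of 4.50, 4.39, 3.95, 3.85, 3.46 and 3.36, so Mx2, at 3.76, stood among them and the Ifitm genes and Bst2 below. Among the untested genes, Trim12a had 0 reads and Trim5 had 1, Ch25h had 8 over all libraries, and Serinc5 stayed below 1 FPKM.

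Genes of the NF-κB response to LPS, set beside them as a second readout of the stimulus, showed 9 higher and 2 lower genes among 11 tested, with a median log2 fold change of 0.56. Of the higher genes, Cxcl2 and Ptgs2 each lost the call in 6 of 13 alternatives, both other scalings among them, as well as without SAHH-KO replicate 2 or control replicate 3 for both, without control replicate 1 for Cxcl2 and without SAHH-KO replicate 3 for Ptgs2. Il1b, one of the lower genes, lost it with no filter on low values. Nos2, which makes nitric oxide, was higher by about as much as Ifitm2 (log2 fold change 1.12, limma adjusted p = 6.77e-05), and the chemokine gene Ccl2 was lower (log2 fold change -1.19, limma adjusted p = 0.000168). Other genes of this list rose more than Nos2, and its largest rise lay above that of every restriction factor but the Mx genes.

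**Figure D5:**
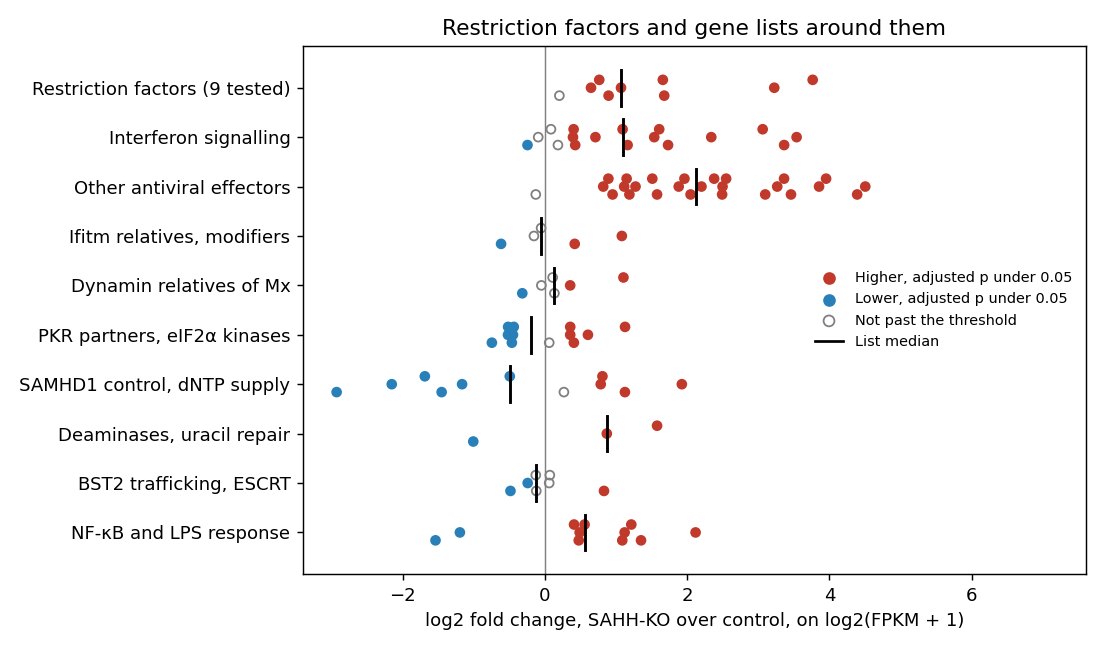
Log2 fold change of SAHH-KO over control for each tested gene of the restriction factors and of 9 gene lists, with filled points past the threshold (red higher, blue lower), open points not past it, and a bar at each median. The restriction factors and other antiviral effectors lie almost wholly to the right, while the lists of SAMHD1 control and PKR partners lie on both sides.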

How the data were processed

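Bulk RNA-seq libraries of stimulated macrophages, 3 of SAHH-KO and 3 of control, were compared. The authors deposited 1 table of FPKM values per gene and library, with gene lengths and coordinates per the file headers. The submitters' processing notes list GRCm38 and mm10 as builds, and featureCounts, STAR, Trim Galore and FastQC as tools. Versions, the use of strand and the step to FPKM are not given in the sources used here. FPKM times gene length was a whole multiple of 1 step in each library (100% of values within 0.01 of a read), which gave the reads per gene and a library size equal to median-of-ratios scaling, 0.937 to 0.9599 times the assigned reads in SAHH-KO and 1.05 to 1.07 times in control. The floor of 3 reads, for a length of 1 kb, was 0.168 to 0.197 FPKM over the libraries. No molecular identifiers are named for the reads, so intervals and floors cover counting error only.

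Genes reaching 1 FPKM in 3 or more libraries entered limma 3.58.1 in R 4.3.3 on log2(FPKM + 1), with empirical Bayes moderation along an intensity trend, two-sided, with Benjamini-Hochberg adjustment over all 10362 genes and a threshold of 0.05. Log2 fold changes are SAHH-KO minus control on that scale, which understates changes of low genes, so folds of mean FPKM are also given. The code was tested on simulated data. Equality of replicates was checked: no libraries held identical values, and all pairs within a group differed beyond sampling noise. Gene identifiers matched GENCODE M21 for 54495 of 54532 genes. Shared 50-base words and exon overlaps were counted in M21, and coding sequences were aligned with Biopython 1.88. Members and gene lists were chosen with earlier results of these data known, and no set test was run. Named are the members, Ahcy, genes that overlap or share words with members, nearest tested neighbours, the closest gene in level, up to 6 genes of each list by size of change and the interferon signalling genes. A few list genes are counted but not reported here by name. Other names were chosen after their values were seen. Shfl was matched through its RefSeq synonym, and Hgs, with 2 overlapping models, was not interpreted.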

Additional observations from a re-analysis of the deposited data

How the results depend on the processing

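The alternatives were a pseudocount of 0.1, no filter on low values, a filter on a mean of at least 5 FPKM, TPM scaling, assigned-read scaling, no intensity trend, a replicate block and leaving out each library in turn. Under each alternative that gave a value, the 8 called restriction factors kept their direction and stayed past the threshold, and Ifitm6 stayed positive and short of it (limma adjusted p 0.0603 to 0.768). With a mean of at least 5 FPKM, Mx1 and Apobec3 were not tested, and 6 members were called. In that smaller set, 1850 genes were lower, against 2782 in the reported fit. The log2 fold change of Mx1 ranged from 3.11 to 5.32 and that of Ifitm6 from 0.04 to 0.31. Without control replicate 1 Ifitm6 was at 0.07 and without control replicate 2 at 0.31. Without a filter Ifitm1 entered the fit at 0.20 (limma adjusted p = 0.157).

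With the replicate number as a block, 8 members, 2729 higher and 2761 lower genes over all were called. Libraries with the same number deviated from their groups with correlations of 0.095, 0.101 and -0.006. Those with different numbers had -0.117 to 0.028. With 3 libraries per group these values cannot decide if the numbers are pairs. The labels do not say that equal numbers share an animal or day, so the reported fit did not pair them. Leaving out 1 library gave 2236 to 2934 higher and 2199 to 2969 lower genes. Over the gene lists, interferon signalling had 0 lower genes under the block and 2 under both scalings, and the deaminase list had a median of -0.02 with no filter. Depth limits Ifitm1 and the control values of Mx1.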

Other observations

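The nearest tested genes beside the restriction factors did not share one direction. On chromosome 8, Mvb12a, 5466 bases beyond the start of Bst2 and itself an ESCRT-I subunit, was at 23.5 ± 0.805 FPKM in SAHH-KO and 16.3 ± 0.922 FPKM in control (log2 fold change 0.50, limma adjusted p = 0.000923), and Gtpbp3 on the other side was not called (log2 fold change -0.27, limma adjusted p = 0.124). Beside Samhd1, Rbl1, which encodes the pocket protein p107, and Soga1 were lower (log2 fold change -0.57, limma adjusted p = 0.00359, and log2 fold change -0.32, limma adjusted p = 0.0475). Pdgfb, beyond Apobec3, was higher (log2 fold change 0.69, limma adjusted p = 0.000961), and Cbx6, on its other side, was not called (log2 fold change -0.04, limma adjusted p = 0.769). Ptdss2, 104458 bases beyond Ifitm6, was at 4.23 ± 0.251 FPKM in SAHH-KO and 4.36 ± 0.217 FPKM in control (log2 fold change -0.03, limma adjusted p = 0.755). The nearest tested genes beyond the Mx pair were far off, Wrb 1289183 bases from Mx1 and Prdm15 230567 bases from Mx2. Wrb was lower (log2 fold change -1.17, limma adjusted p = 1.26e-05) and Prdm15 was not called (log2 fold change 0.24, limma adjusted p = 0.0586). Cebpzos beside Eif2ak2 was lower (log2 fold change -0.40, limma adjusted p = 0.0174). The calls of Soga1 and Cebpzos were each lost in several alternatives, Soga1 when any 1 library other than control replicate 3 was left out and Cebpzos without SAHH-KO replicate 2 or control replicate 3.

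The protein-coding gene closest in level to each member over the 6 libraries, by mean absolute difference of log2(FPKM + 1), was Heatr9 for Mx1 (0.0968), Aldh1b1 for Mx2 (0.121), Sesn2 for Samhd1 (0.118) and Carhsp1 for Eif2ak2 (0.111). It was Coro1a for Bst2 (0.0722), Atf4 for Ifitm2 (0.119), Rplp1 for Ifitm3 (0.166), Glipr1 for Ifitm6 (0.0675) and Lztfl1 for Apobec3 (0.1002). Heatr9 averaged 9.80 ± 2.11 FPKM in SAHH-KO and 0.209 ± 0.0673 FPKM in control, and Aldh1b1 34.7 ± 7.56 FPKM in SAHH-KO and 1.79 ± 0.236 FPKM in control. These are likenesses of level alone.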
